A study of Mus musculus with 19 samples.

Results

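The phagocyte NADPH oxidase is represented here by 5 genes that were listed by name and were present in the tables of all 3 cell types: Cybb, Cyba, Ncf1, Ncf4 and Rac2, among 2606 gene names that the tables shared. All 5 passed the filter on low values in every table. The libraries came from wild type female C57BL/6 mice at age P85 with experimental autoimmune encephalomyelitis (EAE), a model of multiple sclerosis. It was set off by the peptide MOG35-55, at 25 µg a mouse, emulsified in CFA (complete Freund's adjuvant). Before that, every mouse had received a lentivirus in the brain that carries GFP, a Gfap promoter, which is active in astrocytes, and a hairpin RNA. The hairpin was scrambled (shScrmbl) or aimed at the unfolded protein response factor Xbp1 (shXbp1), so that microglia and monocytes were read in mice whose astrocytes were the target. There were 4 libraries of sorted astrocytes with shScrmbl and 4 with shXbp1, 4 and 3 of microglia and 2 and 2 of monocytes. The nervous system of each mouse was taken up singly. The labels name no step that selected GFP+ cells.

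The oxidase moves electrons from NADPH across a membrane onto oxygen and so makes superoxide, which phagocytes use against microbes. Its catalytic core is a heterodimer in the membrane, gp91phox (Cybb) with p22phox (Cyba). On activation cytosolic subunits, among them p47phox (Ncf1) and p40phox (Ncf4), join it together with the GTPase Rac2. In the inflamed nervous system microglia and infiltrating monocytes both carry it.

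RNA was counted at 3′ ends and deposited as a normalized signal, on 1 scale within each table, from which whole counts could be recovered. Libraries held 32842 to 302003 counts in astrocytes, 10039 to 122002 in microglia and 15654 to 112676 in monocytes, so that 1 count was worth a signal between 4.22 and 76.0. In the microglia library with the fewest counts a gene listed at 0 could still have a level of 228, the worth of 3 counts. The counting error is therefore large for the lower members, and this limit covers counting error only. Xbp1 itself had a mean signal of 49.8 ± 30.3 (SD, n = 4) in shScrmbl and 49.5 ± 22.3 (n = 4) in shXbp1 astrocytes, at 20.1, 71.7, 79.9 and 27.6 against 34.1, 52.9, 31.2 and 79.7 in the single libraries. In microglia it was 51.9, 50.5, 103 and 0 against 76.0, 69.0 and 0, and in monocytes 126 and 182 against 303 and 126. A lower Xbp1 level was not detectable at this depth (22 and 28 counts in astrocytes; limma difference 0.12, 95% interval -1.33 to 1.57, adjusted p = 0.966), and shXbp1 below means the libraries labelled shXbp1. Among astrocyte libraries shScrmbl replicate 2 stood apart for several members, and the results that rest on it are given with and without it.

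Markers of the sorted type were found in each cell type, beside those of choroid plexus and other cell types. All 12 listed microglia markers were in the microglia table, with a summed signal of 7160 to 12641. All 12 monocyte and macrophage markers were in the monocyte table, with 5460 to 21576, led by Lyz2. In libraries labelled astrocytes 11 of 13 astrocyte markers summed to 2087 to 3422, whereas 7 of 8 choroid plexus markers, led by Ttr, summed to between 149336 and 310168. Choroid plexus markers were high elsewhere too, with 4 of 8 summing to 18040 to 63844 in microglia, above the microglia markers in each library, and 2 of 8 to 3745 to 8039 in monocytes, above the monocyte markers in shXbp1 replicate 1 alone. Microglia markers summed to 1324 to 3821 in libraries labelled astrocytes. There shScrmbl replicate 2 had more of them (3821) than of astrocyte markers (2087). Oligodendrocyte markers (8 of 8) summed to 2204 to 7026 in libraries labelled astrocytes. In monocytes 9 of 15 T, NK and B cell markers summed to 3759 and 2559 with shScrmbl and to 4196 and 4606 with shXbp1. The part of all these other cells in the results below was not tested. In bulk libraries fewer cells of a type and less RNA per cell cannot be told apart.

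RefSeq (GRCm38.p6) held promoters for 3 of the 5 members, and they are shown because Cybb was the member that passed a test, with Cyba and Ncf1 to set beside it. Ncf4 and Rac2 are named only. Each runs 5′ to 3′ on the gene's strand, from 120 bases before the annotated start to 30 bases after it. The start used for Cybb is that of the RefSeq promoter entry, which lies inside the gene's span given below and not at its outer end. Capitals mark GAGGAA or its reverse complement TTCCTC, a core that the myeloid transcription factor PU.1 can bind.
Cybb, chrX:9469295-9469444, minus strand: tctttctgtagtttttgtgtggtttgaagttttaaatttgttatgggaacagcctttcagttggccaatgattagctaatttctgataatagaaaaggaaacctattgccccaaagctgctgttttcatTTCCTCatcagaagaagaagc
Cyba, chr8:122432911-122433060, minus strand: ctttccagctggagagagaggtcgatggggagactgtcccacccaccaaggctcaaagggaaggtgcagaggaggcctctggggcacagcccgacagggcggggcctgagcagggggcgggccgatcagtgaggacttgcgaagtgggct
Ncf1, chr5:134229596-134229745, minus strand: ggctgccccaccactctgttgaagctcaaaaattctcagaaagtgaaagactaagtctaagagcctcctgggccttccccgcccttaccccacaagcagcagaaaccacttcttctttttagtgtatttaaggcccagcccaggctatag
The Cybb window held 1 match, which began 10 bases into the transcript on the opposite strand. The Cyba and Ncf1 windows held none, and 14.8% of 32851 RefSeq promoter windows of this length held at least 1. A match describes letters only and does not show binding.

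Cybb encodes gp91phox, the subunit that carries the electrons (ENSMUSG00000015340.10, chromosome X, 9435252 to 9487771, GRCm38, minus strand). In microglia its signal was 415, 1653, 849 and 360 in shScrmbl replicates 1 to 4 and 152, 276 and 239 in shXbp1 replicates 1 to 3. Every shXbp1 library lay below every shScrmbl library, and shScrmbl replicates 2 and 3 stood highest. The mean was 819 ± 597 (SD, n = 4; 239 counts) against 222 ± 63.7 (n = 3; 16 counts). Depth differed between the viruses. In the same order the libraries held 17892, 92765, 122002 and 25821 counts over all genes with shScrmbl, and 10039, 13321 and 46586 with shXbp1. The shScrmbl replicates 2 and 3, highest in Cybb, were thus also the deepest. The part of depth in these values was not tested. By edgeR's quasi-likelihood test on the recovered counts Cybb fell to 0.259 of the shScrmbl level, a log2 difference of -1.95 (Benjamini-Hochberg adjusted p = 0.0164). This test called 12 of 3066 microglia genes, or 0.391%, and Cybb ranked 6 among all of them by p.

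The other tests gave Cybb in microglia a difference of like size without calling it. The main test, limma on log2(signal + 1), gave -1.65 ± 0.48 (SE; 95% interval -2.63 to -0.66, adjusted p = 0.653) and called 0% of microglia genes, with 166 at an unadjusted p under 0.05. DESeq2 gave -1.88 (adjusted p = 1.0), with 0 genes called and 62 at an unadjusted p under 0.05. An exact two-sided permutation test over the 7 libraries gave p = 0.0571 (0.429 adjusted over 15 tests of members and cell types). The difference kept its sign when single libraries were left out, and the edgeR call ended in 4 of 7 cases. Without shScrmbl replicate 2 the edgeR difference was -1.39 (adjusted p = 0.793), without shScrmbl replicate 3 it was -1.96 (0.115), without shXbp1 replicate 1 it was -1.90 (0.0689), and without shXbp1 replicate 3 it was -2.03 (0.225).

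**Figure D1:**
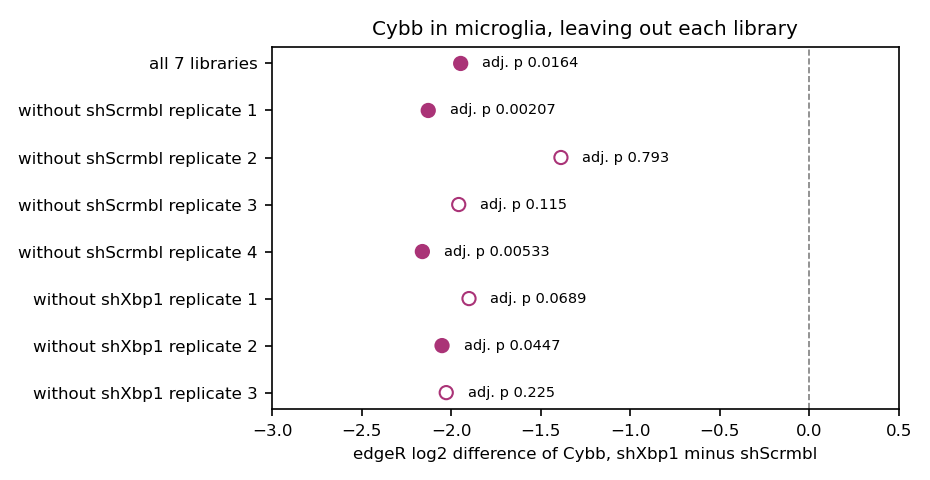
The horizontal axis gives edgeR's log2 difference of Cybb in microglia, shXbp1 minus shScrmbl, with all 7 libraries (top) and without each in turn; filled points have an adjusted p under 0.05, open points do not. The difference lay between -2.16 and -1.39 in each of the 7 refits, and 4 of them were not called.

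Cybb had lower values in shXbp1 monocytes too, with 2 libraries a group and no call. Its signal was 1202 and 1402 in the shScrmbl libraries and 303 and 607 in the shXbp1 libraries, so both shXbp1 values lay below both shScrmbl values. Such a separation held for 25% of the 3775 monocyte genes. The mean was 1302 ± 142 (n = 2; 240 counts) against 455 ± 215 (n = 2; 35 counts). Over all genes the shScrmbl libraries held 74340 and 112676 counts and the shXbp1 libraries 15654 and 56625, and the part of depth was not tested. The limma difference was -1.59 ± 0.63 (SE; 95% interval -2.88 to -0.31, adjusted p = 0.528) and that of edgeR -1.44 (adjusted p = 0.921). Without shXbp1 replicate 2, which leaves 1 shXbp1 library that is assumed to vary like the others, limma gave -2.09 (adjusted p = 0.000382) and edgeR -2.10 (0.0105). That refit called 30.8% of all monocyte genes by limma and 0.768% by edgeR. Without shXbp1 replicate 1 Cybb had -1.10 by limma (adjusted p = 0.0544) and -1.15 by edgeR (0.138). The difference in microglia minus that in monocytes was -0.05 on the log2 scale (exact permutation p = 0.971, adjusted over 15 tests 0.971), which does not show that they are the same.

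In astrocyte libraries Cybb rested on 1 library. Its signal was 20.1, 371, 26.6 and 27.6 in shScrmbl replicates 1 to 4, from 1, 88, 1 and 1 counts, and 51.2, 67.4, 52.0 and 26.6 in shXbp1 replicates 1 to 4. The shScrmbl replicate 2 value stood alone and the other 7 values overlapped. The limma difference was -0.06 ± 0.79 (SE, adjusted p = 0.987) and that of edgeR -1.65 (adjusted p = 0.669). Without shScrmbl replicate 2 they became 0.90 and 0.96. That library also held the highest summed signal of monocyte markers among astrocyte libraries, 4036 against 171 to 985 in the other 7, and its part in the Cybb value was not tested beyond the refit without it.

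Cyba encodes p22phox, which stabilizes gp91phox in the membrane (ENSMUSG00000006519.11, chromosome 8, 122424776 to 122432930, minus strand). In microglia its signal was 311, 871, 485 and 520 in shScrmbl and 152, 552 and 359 in those with shXbp1. The groups overlapped, with 1 of 3 shXbp1 values below all shScrmbl values. The mean was 547 ± 234 (n = 4; 140 counts) against 354 ± 200 (n = 3; 25 counts), a limma difference of -0.71 ± 0.47 (SE, adjusted p = 0.814) and an edgeR difference of -0.68 (adjusted p = 0.992). In monocytes it was 461 and 528 against 202 and 607, and the shXbp1 values lay on either side of the shScrmbl values (limma -0.49 ± 0.69 SE, adjusted p = 0.887). The limma value was 0.30 without shXbp1 replicate 1 (adjusted p = 0.716) and -1.28 without shXbp1 replicate 2 (adjusted p = 0.0385), in the refit that called 30.8% of all monocyte genes. In microglia the limma value of Cyba was -0.20 without shXbp1 replicate 1. Astrocyte libraries gave 0, 177, 26.6 and 27.6 against 34.1, 19.2, 20.8 and 53.1, where the sign went with the scale, 0.64 by limma and -1.44 by edgeR (adjusted p = 0.912 and 0.696).

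Because the scaling of a library cancels in a ratio of its own genes, Cybb was also set against Cyba within each library. In shScrmbl microglia log2(Cybb + 1) minus log2(Cyba + 1) had a mean of 0.40 ± 0.66 (n = 4) and in shXbp1 microglia -0.53 ± 0.50 (n = 3), a difference of -0.93 (exact permutation p = 0.114, adjusted over 3 cell types 0.343). The groups overlapped, from -0.53 to 0.92 and from -1.0 to 0. In monocytes the means were 1.39 ± 0.02 and 0.29 ± 0.41 (n = 2 and 2), a difference of -1.10, with both shXbp1 values below both shScrmbl values (exact permutation p = 0.333, the smallest that 2 against 2 libraries allow in a two-sided test). In astrocytes the means were 1.36 ± 2.08 and 0.66 ± 1.19 (n = 4 and 4; exact permutation p = 0.657). The ratio was thus not called different in any cell type.

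Ncf1 encodes p47phox, the organizer that carries the cytosolic subunits to the membrane (ENSMUSG00000015950.13, chromosome 5, 134220053 to 134229625, minus strand). In microglia its signal was 259.5, 290.2, 448 and 200 in shScrmbl and 0, 207 and 263 in those with shXbp1. The 0 came from the shallowest library, and the other shXbp1 values lay within the shScrmbl range. The limma difference of -2.92 ± 2.14 (SE, adjusted p = 0.814) includes that 0 and was -0.29 without that library, and edgeR gave -0.76 (adjusted p = 0.992; 81 and 14 counts). Monocytes had 140 and 219 against 101 and 167, which overlapped (edgeR -0.33, adjusted p = 0.988). Astrocyte libraries had 80.2, 190, 0 and 0 against 85.3, 67.4, 52.0 and 39.8, with means of 67.5 ± 89.9 and 61.1 ± 19.6 (n = 4 and 4), and the sign again went with the scale (limma 2.42, adjusted p = 0.824; edgeR -0.74, adjusted p = 0.861).

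Ncf4 encodes p40phox, which binds a phosphoinositide of phagosome membranes (ENSMUSG00000071715.12, chromosome 15, 78244801 to 78262580, plus strand), and was the member with the fewest counts. Microglia with shScrmbl had 51.9, 63.1, 121 and 160 (23 counts), and those with shXbp1 0, 69.0 and 71.8 (4 counts). The groups overlapped and edgeR gave -0.77 (adjusted p = 0.996). The limma difference of -2.39 ± 1.97 (SE, adjusted p = 0.814) was -0.34 without shXbp1 replicate 1. In monocytes it was higher with shXbp1, at 202 and 356 against 182 and 118, or 279 ± 109 against 150 ± 44.7 (n = 2 and 2; 21 and 26 counts). The groups did not overlap, as was so in this direction for 9.85% of monocyte genes, and neither test called it (limma 0.87 ± 0.73 SE, adjusted p = 0.887; edgeR 1.0, adjusted p = 0.988). The difference in microglia minus that in monocytes was -3.26 on the log2(signal + 1) scale (exact permutation p = 0.0429), which did not hold after adjustment over 15 tests (0.45). In astrocytes 4 of 8 libraries had no count, and the values ran from 0 to 42.2.

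Rac2 encodes the GTPase of blood cells that switches the complex on (ENSMUSG00000033220.7, chromosome 15, 78559167 to 78572783, minus strand). In microglia its signal was 571, 391, 513 and 360 in shScrmbl and 228, 207 and 359 in those with shXbp1. Each shXbp1 value lay below each shScrmbl value, the nearest being 359 and 360. The mean was 459 ± 99.8 (n = 4; 106 counts) against 265 ± 82.4 (n = 3; 21 counts). The limma difference was -0.81 ± 0.44 (SE; 95% interval -1.70 to 0.09, adjusted p = 0.804), that of edgeR -0.65 (adjusted p = 0.996), and the exact permutation p was 0.0286, the smallest that 4 against 3 libraries allow in a two-sided test, and 0.429 after adjustment over 15 tests. In monocytes it was 1216 and 1074 against 961 and 1633, with the shXbp1 values on either side (limma 0.13 ± 0.61 SE, adjusted p = 0.966; -0.25 without shXbp1 replicate 2). In astrocytes it ranged from 40.1 to 152 with shScrmbl and from 34.1 to 79.7 with shXbp1.

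As a group, the 5 members had differences below 0 in microglia by limma, edgeR and DESeq2, and 1 passed a test. All 5 had an edgeR difference below 0, as did 55.4% of the microglia genes tested, and their median was -0.76 beside -0.09 for all genes (by limma -1.65 beside -0.39). Cybb and Rac2 were the 2 members with groups that did not overlap, downward, against 4.92% of microglia genes. In monocytes 3 of 5 were lower and 2 higher (median edgeR difference -0.18 beside -0.17 for all genes). In astrocytes all 5 were lower by edgeR (median -0.75 beside 0.05), whereas limma had 3 higher and 2 lower, and without shScrmbl replicate 2 edgeR turned Cybb, Cyba, Ncf1 and Ncf4 to values above 0. No member was called in astrocytes or monocytes. Background calls there were 0% by limma and 0.0157% by edgeR in astrocytes, and 2.68% by limma and 0.0265% by edgeR in monocytes, where 99 of the 101 limma calls had 1 virus group entirely at 0. No difference between cell types passed for any member (15 exact permutation tests, smallest adjusted p = 0.45).

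**Figure D2:**
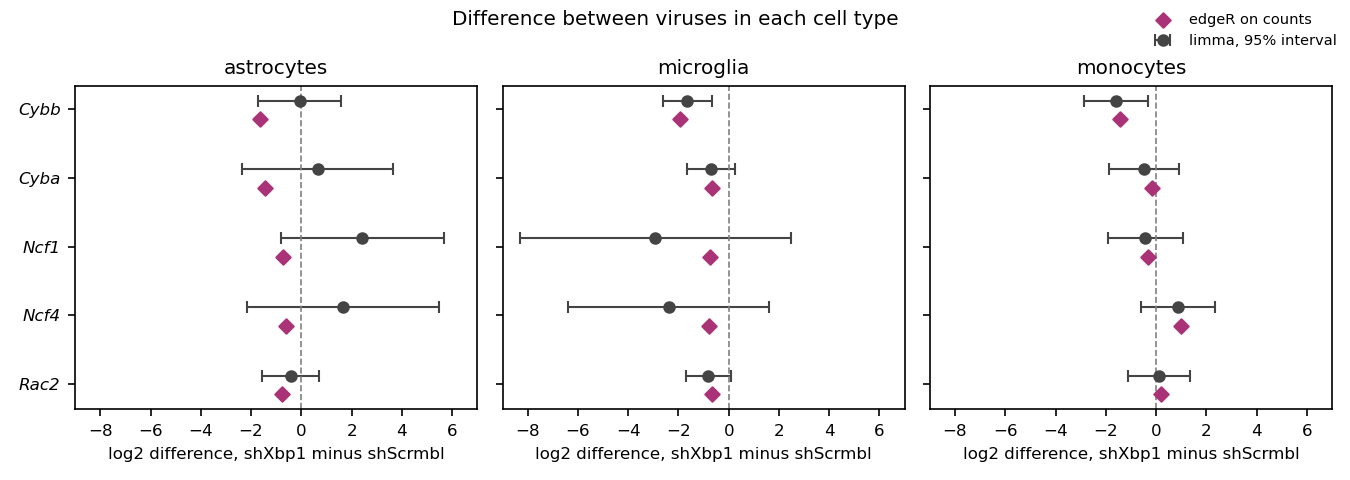
Log2 difference, shXbp1 minus shScrmbl, of each member in each cell type by limma on log2(signal + 1) (circles, bars are 95% intervals) and by edgeR on recovered counts (diamonds). Every member lies left of 0 in microglia, the limma intervals of Cybb stay below 0 in microglia and monocytes, and in astrocytes the 2 scales differ in sign for Cyba, Ncf1 and Ncf4.

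Markers of monocytes and macrophages were lower in shXbp1 microglia, as Cybb was. Of the 12 listed, 11 were in the microglia table, and all 11 were lower in shXbp1 libraries by both fits. Of all 3066 microglia genes tested, 2007 were lower by limma and 55.4% by edgeR. Among the 11, edgeR called 2, the lysozyme Lyz2 and haptoglobin (Hp), beside 0.391% of all genes, and limma called none. The summed signal of the 11 was 4983, 23925, 17382 and 7920 in shScrmbl replicates 1 to 4 and 1672, 8210 and 4022 in shXbp1 replicates 1 to 3. Lyz2 led these sums, with means of 11155 ± 7132 and 4133 ± 3193 (n = 4 and 3). The 2 libraries with the highest sums, shScrmbl replicates 2 and 3, were the 2 with the highest Cybb. The order did not hold throughout. With a sum of 8210, shXbp1 replicate 2 had less Cybb (276) than shScrmbl replicates 1 and 4 (415 and 360), whose sums were lower. The defining markers Ly6c2 and Ccr2 stood at 0 in 3 and 2 of the 7 libraries. In monocytes the same list summed to 21576 and 21216 with shScrmbl and to 5460 and 17231 with shXbp1, and the library with the lowest sum, shXbp1 replicate 1, also had the lowest Cybb. Microglia markers went the other way in microglia, 12 of 12 higher by edgeR, 9 of 12 by limma and 0 called, with sums of 7160 to 9760 against 7520 to 12641. Neutrophils also carry the oxidase, and 7 of their 15 listed markers were in the microglia table, with sums of 882 to 952 in shScrmbl and 414 to 1140 in shXbp1 libraries. By edgeR 6 of the 7 were lower and 1 higher, with none called: Ngp, a granule protein, had 185 ± 57.5 and 7.98 ± 13.8, and Csf3r, the G-CSF receptor, 249.7 ± 37.7 and 479.6 ± 204 (n = 4 and 3). In monocytes 9 of the 15 summed to 1076 and 892 against 354 and 293, with 8 lower and 1 higher by edgeR. Of these limma called 1, Mmp8, at 99.0 ± 1.66 with shScrmbl and 0 with shXbp1 (n = 2 and 2, adjusted p = 0.0283), and edgeR did not (adjusted p = 0.922). Limma called 2.68% of all monocyte genes. The part of these cells in the Cybb values was not tested.

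**Figure D3:**
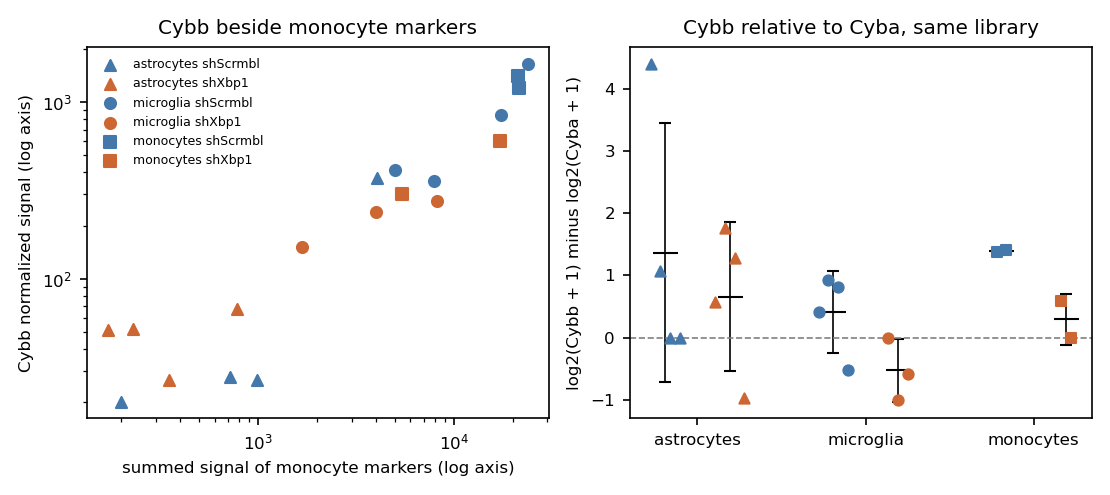
Left, Cybb signal against the summed signal of the monocyte and macrophage markers, 1 point per library, both on log axes; the number of markers in the table was 6, 11 and 12 in astrocytes, microglia and monocytes. Right, log2(Cybb + 1) minus log2(Cyba + 1) per library with the mean and SD of each group. Lyz2 leads the sums in microglia and monocytes. Among microglia shScrmbl replicates 2 and 3 have the highest sums and the highest Cybb. The order does not hold throughout, as shXbp1 replicate 2 (sum 8210, Cybb 276) has less Cybb than shScrmbl replicate 1 (4983, 415). On the right, shXbp1 monocytes lie at 0 and 0.58 where shScrmbl monocytes lie at 1.38 and 1.41.

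Across the 6 groups the members were lowest in astrocyte libraries. The tables had been normalized separately, so levels were ordered without a test, and neighbours were called apart where their means differed by more than the larger SD. Cybb ran from shScrmbl monocytes (1302) through shScrmbl microglia (819), shXbp1 monocytes (455), shXbp1 microglia (222) and shScrmbl astrocytes (111) to shXbp1 astrocytes (49.3 ± 16.9), and of these neighbours only shXbp1 monocytes and shXbp1 microglia stood apart. Rac2 separated the cell types, with both monocyte groups (1297 ± 475 and 1145 ± 99.9) above shScrmbl microglia, shScrmbl above shXbp1 microglia, and these above both astrocyte groups (81.7 ± 49.5 and 56.1 ± 19.5). Cyba had 547, 495, 405 and 354 in the 4 myeloid groups, none apart from the next, and 57.8 ± 80.5 and 31.8 ± 15.7 in astrocytes. Ncf1 was highest in shScrmbl microglia (299 ± 106), apart from the 179 ± 55.7 of shScrmbl monocytes, and Ncf4 in shXbp1 monocytes.

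**Figure D4:**
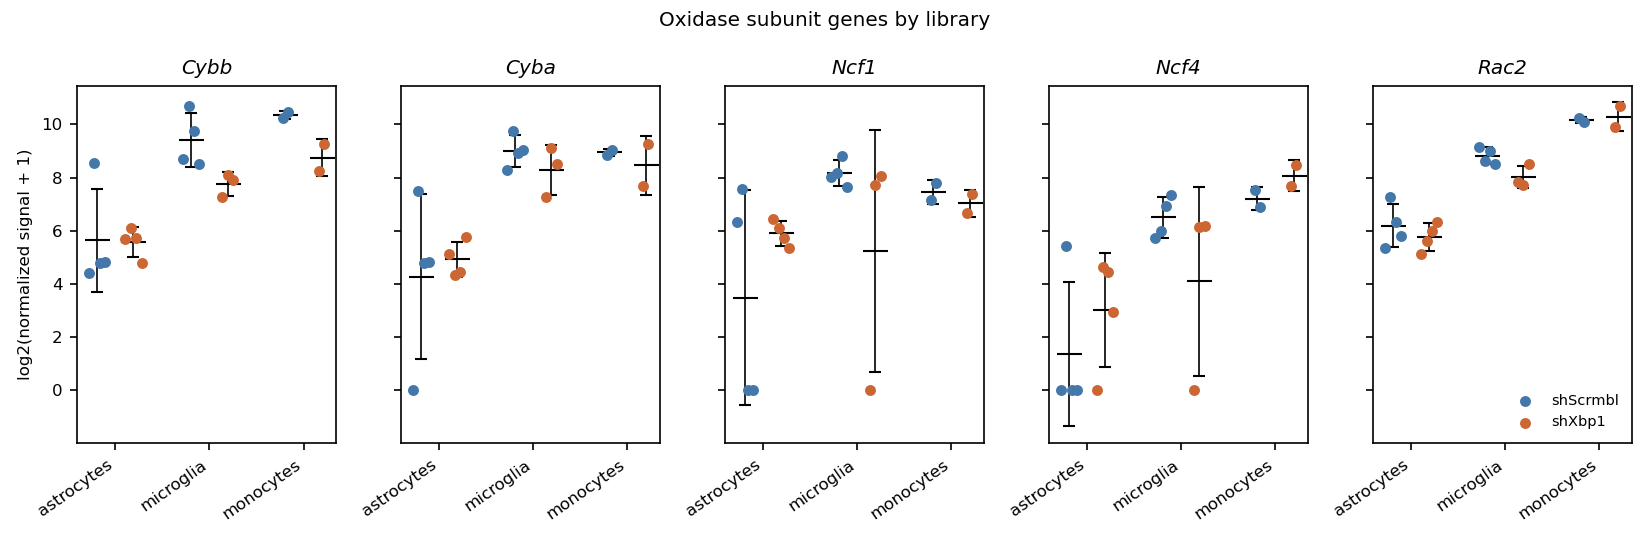
Each point is 1 library, on the vertical axis log2(normalized signal + 1), by cell type and virus; the horizontal mark is the group mean and the bars are 1 SD. Cybb and Rac2 do not overlap between viruses in microglia, points at 0 are libraries without a count, and in astrocytes 1 shScrmbl library stands above the rest for Cybb and Cyba.

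The genes with the patterns most like each member were sought over the 19 libraries. The measure was Pearson's r of log2(signal + 1) over 2590 genes with at least 50 counts, as a description, and the points share cell type, depth and separately normalized tables. Cybb was nearest to Mpeg1 (0.94), Lyz2 (0.94) and Ctsb (0.93), which encode a pore-forming protein, a lysozyme and a lysosomal protease of macrophages. Cyba was nearest to Cd68 (0.97), Cd52 (0.96) and Ctsh (0.96). For Rac2 they were Lcp1 (0.96), an actin bundler of blood cells, and the ribosomal genes Rps6 (0.95) and Rplp0 (0.95). Ncf1 (Fermt3, Bin2 and Supt5, each 0.95) and Ncf4 (Hcst 0.91, Samhd1 0.89 and Capg 0.88) have few counts, and several libraries at 0. With each other the members had r between 0.44 (Cyba and Ncf1) and 0.88 (Cybb and Cyba).

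Partners of the complex showed no call either. Of 13 other subunits, homologues and helpers listed, 3, 3 and 3 were in the astrocyte, microglia and monocyte tables, with none called by limma or edgeR. Rac1, the widely expressed relative of Rac2, had 124 ± 66.0 and 135 ± 177 in microglia. Hvcn1, the proton channel that balances the charge of the burst, had 94.3 ± 69.3 and 135 ± 57.8 there.

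Upstream of the complex no listed gene passed limma or edgeR in any cell type. Among Rac regulators and activators 13 of 22 were measured in microglia, 6 higher and 7 lower by edgeR (median -0.08). Arhgdib, which holds Rac proteins in the cytosol, had 762 ± 182 and 417 ± 220 (n = 4 and 3; limma -0.96 ± 0.42 SE, adjusted p = 0.804), and Vav1, an exchange factor for Rac, had means of 401 and 254. Was and Rap1b went the other way, with means of 37.6 and 97.6 for Was and of 67.2 and 165 for Rap1b. Of 18 receptors and adaptors that trigger the burst 12 were measured in microglia, 2 higher and 10 lower by edgeR (median -0.26). Itgb2, the integrin chain of complement receptor 3, had 637 ± 176 and 310 ± 299 there (limma -1.51 ± 0.55 SE, adjusted p = 0.804), and Fcer1g, the signalling chain of Fc receptors, had 5152 and 3596. In astrocytes all 12 measured receptors and adaptors were lower by edgeR (median -1.19) and 9 of 12 by limma, Tyrobp with 356 ± 272 against 174 ± 58.0 (n = 4 and 4). Without shScrmbl replicate 2 edgeR had 8 higher and 4 lower (median 0.20 beside 0.18 for all genes) and limma 7 higher and 5 lower. Of 10 transcription factors known to act on oxidase genes 7 were measured in microglia, all 7 lower by edgeR (median -0.28), 6 of 7 by limma, and none called.

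Enzymes that remove superoxide and peroxide gave no call. In microglia 14 of 24 were measured, 2 higher and 12 lower by edgeR, with a median of -0.50 beside -0.09 for all genes. Prdx5, a peroxiredoxin, had 564 ± 280 in shScrmbl and 166 ± 181 in shXbp1 microglia (n = 4 and 3; edgeR -1.46, adjusted p = 0.199), and Prdx6 had means of 226 and 131. In monocytes 12 of 15 were higher and 3 lower by edgeR (median 0.49 beside -0.17), whereas limma had 7 higher and 8 lower (median -0.14 beside -0.42). In astrocytes 11 of 20 were higher and 9 lower by edgeR (median 0.10 beside 0.05), and 9 and 11 without shScrmbl replicate 2. Among other enzymes that make oxidants, 1, 2 and 3 of 6 were measured in the 3 tables. Myeloperoxidase (Mpo), a neutrophil enzyme that uses the peroxide of the burst, had means of 143 and 41.9 in monocytes (limma adjusted p = 0.887).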

How the data were processed

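RNA of 19 libraries was measured by 3′ digital gene expression. Each of the 3 cell types has its own deposited table, in which the authors give genes a normalized signal in every library. BWA 0.7.10, limma 3.34.1 and mm10 are listed, with no role, per the submitters' processing notes; counter, annotation and scaling are not given in the sources used here. All values above 0 were whole multiples of 1 step per library (100% within 0.01), which gave counts. Samples were grouped by title. Tables hold 6376, 3067 and 3776 genes, and symbols were matched ignoring case, older ones through RefSeq synonyms. Coordinates are from GENCODE M21 (GRCm38, also called mm10).

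Each cell type was fitted alone over all genes that reached a signal of 1 in n or more libraries, n being the size of its smaller group. The main test was limma 3.58.1 (trend, robust) on log2(signal + 1). Calls needed an adjusted p (Benjamini-Hochberg) under 0.05. edgeR 4.0.16 (quasi-likelihood) and DESeq2 1.42.0 were run on the counts, in R 4.3.3; exact permutation tests used Python 3.11.15. The fits were tested on simulated data. Fold changes of low genes depend on the pseudocount. The members and gene lists were chosen with earlier results of these data known. Genes were named by a rule: every member, up to 4 genes of each list by limma p, called list genes and the 3 most alike; Xbp1, Rac1 and Hvcn1 were given for context. Alternatives were the test, scaling, pseudocount, filter, replicate block and leaving out each library. Within groups no pair of libraries looked duplicated (chi-square per gene 1.46 to 4.91 over 23 pairs). The labels take each nervous system from 1 mouse but do not tie cell types to mice, so p-values measure the spread between these samples.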

Additional observations from a re-analysis of the deposited data

Results flagged for a closer look

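In astrocytes with shScrmbl, replicate 2 stood far above the other 3 libraries of its group for 3 members: Cybb at a signal of 371, Cyba at 177 and Ncf4 at 42.2. The gap to the nearest library took up 0.979, 0.844 and 1 of the group's range. The check covered 15 groups of 4 libraries, and chance marks about 1 in 20 groups. It is the deepest library, with 302003 counts, and it held the highest summed monocyte marker signal of the astrocyte libraries (4036). The part of either in these values was not tested.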

How the results depend on the processing

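Depth limits the lower members most, since 1 count was worth a signal of up to 76.0. Among results that answer a comparison, 153 of 187 values under another setting kept their direction and side of the threshold, 19 counts of genes moved by over 1.5 times, 13 values reversed and 2 passed the threshold. Without 1 library 158 of 185 kept them, 16 moved, 5 reversed, 4 lost the call and 2 gained it. The refit of the pathway lists without astrocyte shScrmbl replicate 2 was chosen after seeing the data. In microglia Cybb passed with edgeR (-1.95), with edgeR without its TMM scaling (-1.79) and with edgeR with the replicate block (-2.02). Without 1 library its edgeR difference ran from -2.16 to -1.39. The count of microglia genes called was 0 by limma, 12 by edgeR with or without TMM, 1 with a pseudocount of 50, 6 after quantile normalization and 11 without trend and robust; without 1 library it ran from 0 to 3 by limma and from 0 to 23 by edgeR. Without shScrmbl replicates 1, 2 and 3 edgeR called 23, 1 and 0, and without shXbp1 replicates 1 and 3 it called 1 and 5.

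In astrocytes limma called 0 genes, edgeR 1 and edgeR without TMM 4; leaving out 1 library gave 1 to 8 by edgeR. Limma differences turned there: Cyba (0.64) to -1.44 by edgeR, -1.22 by DESeq2, -1.23 without TMM, -0.0094 and -0.17 with pseudocounts of 10 and 50, and -0.79 after quantile normalization; Ncf1 (2.42) to -0.74 by edgeR, -0.54 by DESeq2 and -0.53 without TMM; Ncf4 (1.65) to -0.60, -0.24 and -0.40 in the same order and -0.55 after quantile normalization. The cause was not tested. Without 1 library the limma difference of Cybb ran from -0.48 to 0.90 and that of Cyba from -0.78 to 1.71; by edgeR Cybb ran from -1.96 to 0.96, Cyba from -1.87 to 0.86, Ncf1 from -1.05 to 0.82 and Ncf4 from -1.14 to 3.59, each highest without shScrmbl replicate 2.

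In monocytes limma called 101 genes, edgeR 1, DESeq2 0 and edgeR without TMM 2; pseudocounts of 10 and 50, a mean signal of at least 50, quantile normalization and limma without trend each gave 0. Leaving out 1 library gave 0 to 1163 by limma and 0 to 61 by edgeR. Without 1 library Cybb ran from -2.09 to -1.10 by limma and -2.10 to -1.15 by edgeR, Cyba from -1.28 to 0.30 and -1.29 to 0.24, and Rac2 from -0.25 to 0.51 and -0.25 to 0.47. A lone library was assumed to vary like the others.

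No pairing by replicate number was seen. Deviations of same-numbered libraries from their group means had r from -0.12 to 0.06 over 9 pairs, none over 0.1. With 2 libraries a group the monocyte pairs must share 1 value (-0.12), and the crossed numbering gave 0.12. A low r in shallow libraries cannot show that the numbers did not pair. With the replicate number as a block (the replicate block) edgeR called 3 genes in astrocytes, 24 in microglia and 0 in monocytes. Cybb in microglia then had -1.95 by limma (adjusted p = 0.792) and -2.02 by edgeR (adjusted p = 0.00259). In monocytes the crossed numbering, added after seeing the data, gave 0 calls by edgeR and 114 by limma.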
